A study of Mus musculus with 14 samples.

Results

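Effector cytokines and chemokines are the secreted proteins by which activated CD8+ T cells act on other cells, and 10 of their genes are described here across 14 mouse RNA-seq libraries. The genes were taken by symbol: Ifng, Tnf, Il2, Lta, Csf2, Il10, Ccl3, Ccl4, Ccl5 and Xcl1. All 10 were present among the 55291 symbols of both deposited tables. The first experiment held 4 libraries of OT-1 splenocyte cultures with ND-646 at 100 nM and 4 with DMSO vehicle. ND-646 inhibits acetyl-CoA carboxylase, the enzyme that makes malonyl-CoA for fatty acid synthesis. OT-1 mice carry a transgenic receptor for an ovalbumin peptide on their CD8+ T cells. Both sets of cultures began as whole splenocytes, received 1 µg/mL of that peptide and 200 U/mL human interleukin-2, and were harvested after 7 days. Those were 3 days of activation followed by 4 days of expansion. The second experiment held 3 libraries of CD8+ T cells from MCA205 tumours and 3 from spleens of C57BL/6 mice, 14 days after the fibrosarcoma cells were placed under the skin. These cells were enriched for CD8+ cells and then sorted. All groups are labelled wild type. Tumour samples are described as pooled from groups of mice, with no number of mice. Nothing states that the replicates of a group are independent mice or cultures. The p-values therefore cover library-to-library spread, part or all of which may be technical.

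A T cell that meets its antigen transcribes many of these genes through NFAT, AP-1 and NF-kB factors, and many of the messages are short-lived because AU-rich elements in their 3′ untranslated regions recruit decay proteins. Interferon gamma acts on antigen presentation and macrophages, tumour necrosis factor and lymphotoxin alpha are related ligands that share receptors, and Csf2 encodes GM-CSF, a myeloid growth factor. The chemokines encoded by Ccl3, Ccl4 and Ccl5 draw T cells and myeloid cells to inflamed tissue, and the Xcl1 product draws dendritic cells that carry XCR1. Interleukin-2 drives T cell growth and interleukin-10 restrains inflammation.

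Promoter sequences are shown for Lta and Tnf, a neighbouring pair. They lie close together on chromosome 17, on the minus strand of GRCm38.p6, and their tests gave different calls in both experiments. The 250 bases before the annotated start are given from RefSeq, 5′ to 3′, for Lta at chr17:35205352-35205601 and for Tnf at chr17:35202008-35202257. Capitals mark GGAAA, the core that NFAT and other factors recognise, on either strand, and TATAAA.
Lta: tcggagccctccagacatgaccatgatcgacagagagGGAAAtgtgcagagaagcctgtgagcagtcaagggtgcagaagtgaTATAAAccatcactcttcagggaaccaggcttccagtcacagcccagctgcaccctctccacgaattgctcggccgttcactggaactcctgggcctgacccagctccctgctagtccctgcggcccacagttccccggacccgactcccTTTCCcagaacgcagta
Tnf: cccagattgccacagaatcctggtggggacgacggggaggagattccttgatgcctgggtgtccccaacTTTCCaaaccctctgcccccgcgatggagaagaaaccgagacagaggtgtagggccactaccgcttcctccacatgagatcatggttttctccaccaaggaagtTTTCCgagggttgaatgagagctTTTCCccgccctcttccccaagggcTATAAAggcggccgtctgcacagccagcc
The RefSeq table held such a window for 7 of the 10 genes, all but Il10, Ccl4 and Ccl5. GGAAA was found on either strand in all 7, and in 55.6% of 32851 promoter windows of the same length. TATAAA was found in 4 of the 7, against 12.4% of all windows. It began 29 to 31 bases before the start in Tnf, Ifng and Il2 but 167 bases before it in Lta. The pattern TGANTCA for AP-1 was on neither strand of the 7 windows, and in 6.75% of all windows. These are letter matches in a short window and no measure of binding.

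The 3′ untranslated regions were searched for the AU-rich pentamer ATTTA and the nonamer TTATTTATT in GENCODE M21 transcripts, on the sense strand, with overlapping matches counted. A pentamer was present in 9 of the 10 genes, all but Ccl5, and in 62.5% of 20364 coding genes with a 3′ region of at least 30 bases. The nonamer was present in 4, with 5 copies in Tnf, 4 in Csf2 and 1 each in Il2 and Lta, against 7.01% of those coding genes. Stretches of 30 bases with the most pentamers are shown for 4 genes to compare their AU-rich content, with pentamers in capitals.
Csf2: tttttaaatATTTATTTATTTATTTATTTA
Tnf: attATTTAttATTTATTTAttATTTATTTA
Ifng: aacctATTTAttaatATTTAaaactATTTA
Lta: tATTTAtggagagaaaagttaagttATTTA
Counted from the first base after the stop codon, these stretches begin at positions 230 in Csf2, 437 in Tnf, 69 in Ifng and 300 in Lta. Csf2 had 9 pentamers in 317 bases and Tnf 8 in 764 bases. Ifng had 6 in 631 bases, and Lta 3 in 572 bases. Among coding genes with a 3′ region within 20% of the same length, the share with at least as many pentamers was 0.0548% for Csf2, 0.341% for Tnf, 1.26% for Ifng and 12.4% for Lta, the gene itself included.

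In units of 1000000 estimated counts, library totals were 23.5 to 33.8 in the first experiment and 19.6 to 21.02 in the second. Levels are given as CPM, counts per 1000000 counts of the library after TMM scaling within each table, so levels set across the experiments are a description only. A count of 0 in a library allows up to 3 counts, which is 0.0878 to 0.154 CPM, for counting error only. All 17 markers of CD8 T cells were detected in every group. Their summed level was 5690 to 5821 CPM in ND-646 and 6135 to 6471 CPM in vehicle libraries, and 4630 to 6205 CPM in tumour and 9563 to 9657 CPM in spleen libraries. Fibroblast and fibrosarcoma markers reached 10678 to 15473 CPM in tumour libraries, against 2.04 to 17.3 CPM in spleen libraries. In bulk RNA, fewer cells of a type and less RNA per cell cannot be told apart.

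**Figure D1:**
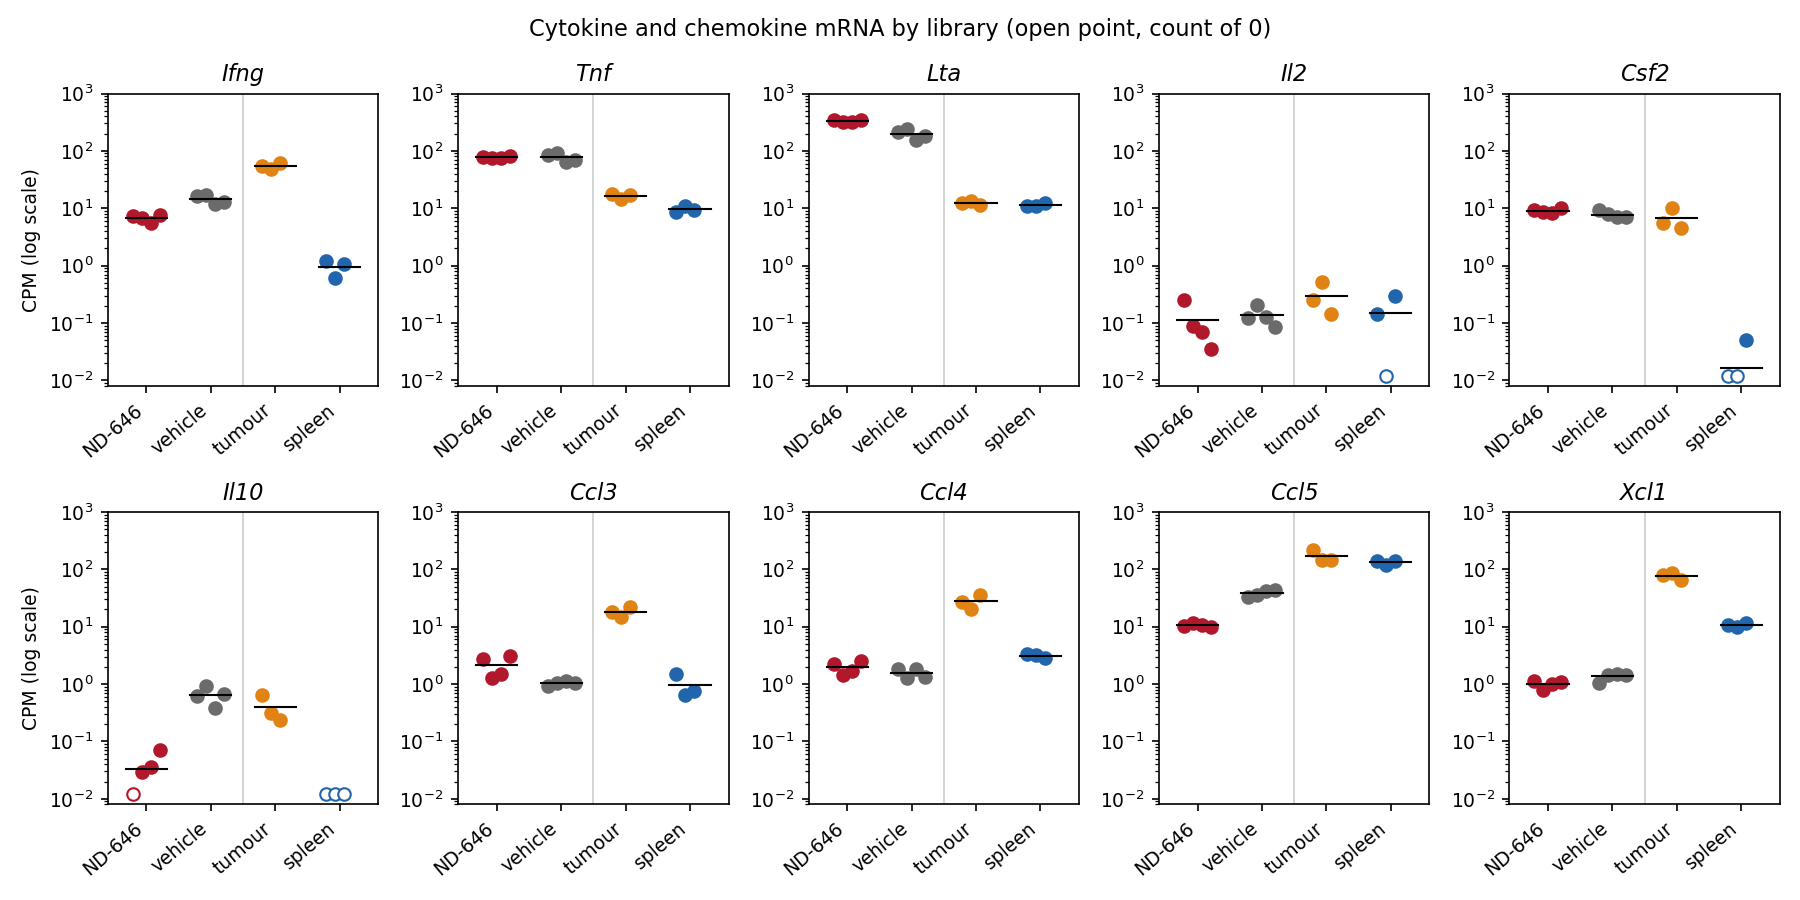
CPM of the 10 genes in each library on a log axis, with each point 1 library, open points a count of 0 and bars the group mean. The levels of Lta and Tnf were higher in the cultures than in either tissue, those of Ifng, Ccl3, Ccl4, Ccl5 and Xcl1 were highest in tumour libraries, and Csf2 had a single count among the 3 spleen libraries.

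ND-646 cultures were compared with vehicle cultures to ask how the genes differ when acetyl-CoA carboxylase is inhibited. The genes did not move as 1 group. Ifng, Ccl5 and Il10 were lower, Lta and Ccl3 were higher, and Tnf, Csf2, Ccl4 and Xcl1 passed no test. Of the 9 genes that passed the low-count filter, 2 rose and 3 fell. The test was edgeR's quasi-likelihood test, with p adjusted by Benjamini-Hochberg over 14251 genes and calls made under 0.05. The same test called 56.3% of all genes, 29.8% higher and 26.5% lower, and the members' share is near that background. The groups of libraries did not overlap for these 5 genes, nor for 51.1% of all genes tested. Il10 passed the filter through vehicle libraries alone, where it was higher, so its call was partly fixed by the filter. Among the other 8 genes, 2 rose and 2 fell, with a median log2 fold change of 0.10 beside 0.01 over all genes.

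Ifng, the signature cytokine of type 1 responses, stood at 7.35, 6.73, 5.47 and 7.57 CPM in ND-646 libraries 1 to 4, against 16.1, 16.8, 11.8 and 12.8 CPM in vehicle libraries. Every ND-646 library lay below every vehicle library. The mean was 6.78 ± 0.944 CPM in ND-646 and 14.4 ± 2.44 CPM in vehicle libraries (SD, n = 4 each). The log2 fold change was -1.09 ± 0.13 (SE), with an adjusted p of 8.39e-06 in edgeR. It lay between -1.17 and -0.999 with each library left out in turn.

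Tnf and Lta, the neighbours on chromosome 17, gave different calls. Tnf had 78.5, 74.6, 76.2 and 81.6 CPM in ND-646 libraries, against 86.4, 90.0, 64.9 and 69.5 CPM in vehicle libraries. The ND-646 values lay within the vehicle range, with a log2 fold change of -0.00 ± 0.11 (SE, adjusted p = 0.984 in edgeR). Lta, whose product forms a soluble homotrimer or joins lymphotoxin beta at the membrane, had 350.3, 319, 314 and 345 CPM in ND-646 libraries, against 214, 236, 156 and 184 CPM in vehicle libraries. All ND-646 libraries were above all vehicle libraries. The difference was 0.75 ± 0.13 on the log2 scale (SE), a 1.68-fold rise with an adjusted p of 0.00235.

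The ratio of Lta to Tnf counts within a library needs no scaling between libraries. It and the ratio of Ccl3 to Ccl4 were chosen after the values were seen. It was 4.46, 4.28, 4.12 and 4.23 in ND-646 libraries and 2.48, 2.62, 2.40 and 2.65 in vehicle libraries. The spread within either group was far smaller than the gap between them. A two-sided exact permutation test gave p = 0.0286, the smallest that 4 against 4 allows, and 0.0571 after adjustment over the 4 ratio tests made. The ratio averaged 0.754 ± 0.141 in tumour and 1.18 ± 0.158 in spleen libraries (SD, n = 3 each). There the order of the groups was the opposite, with no overlap and an exact p of 0.1, the smallest possible, also after adjustment.

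**Figure D2:**
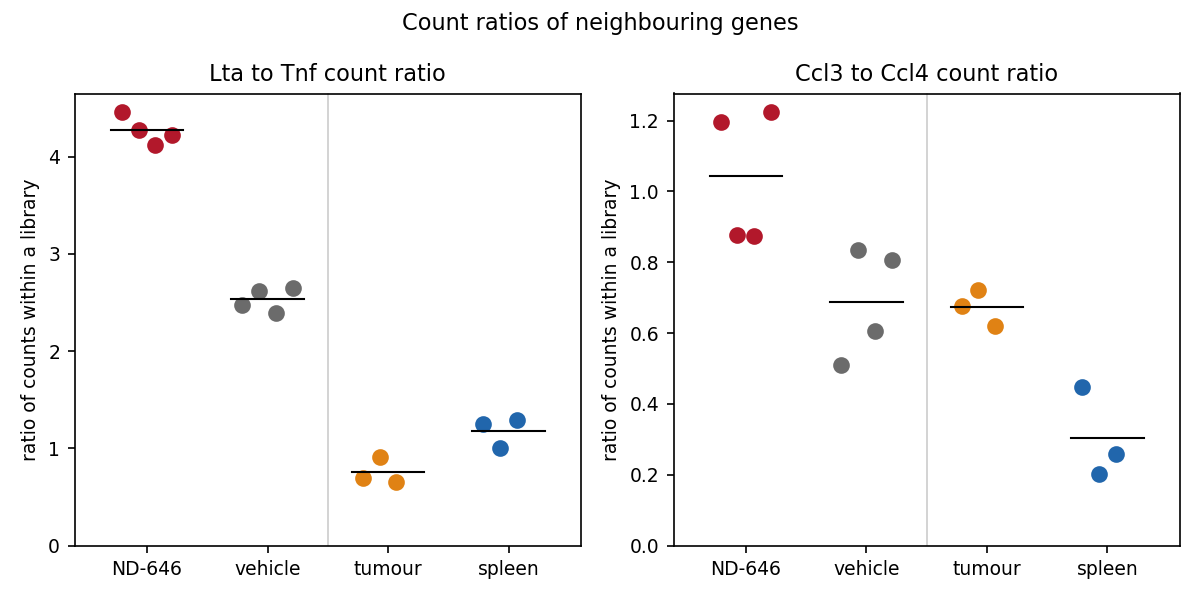
Ratio of counts within each library for the neighbouring genes Lta and Tnf and for the chemokine genes Ccl3 and Ccl4, with points for libraries and bars for group means. The Lta to Tnf ratio was 4.12 to 4.46 in ND-646 and 2.40 to 2.65 in vehicle libraries.

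Csf2, which encodes GM-CSF, had 9.23, 8.49, 8.15 and 9.98 CPM in ND-646 libraries, against 9.17, 7.87, 6.96 and 6.99 CPM in vehicle libraries. The groups overlapped through vehicle library 1, with a log2 fold change of 0.21 ± 0.10 (SE, adjusted p = 0.0797 in edgeR). Without that library the value was 0.30 and the adjusted p 0.0180. Scaled by the CD8 T cell markers, it was 0.34 with an adjusted p of 0.00633.

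Il10 was scarce in both kinds of culture. It had 0, 1, 1 and 2 counts in ND-646 libraries, against 15, 27, 9 and 16 counts in vehicle libraries. The mean was 0.0338 ± 0.029 CPM in ND-646 and 0.657 ± 0.23 CPM in vehicle libraries (SD, n = 4 each). The fitted log2 fold change was -4.17 ± 0.53 (SE, adjusted p = 2.45e-06 in edgeR), for a gene that passed the filter through vehicle libraries alone. From the summed counts of 4 and 67, the ratio was 0.0487 with an exact 95% interval of 0.0129 to 0.131, which covers counting error only. Interleukin-10 is also made by macrophages and by regulatory and other CD4 T cells. Of 6 tested macrophage, monocyte and neutrophil markers, 4 were lower and 1 higher, with sums of 27.6 to 35.9 CPM in ND-646 and 84.2 to 107 CPM in vehicle libraries. Most of the vehicle sum was Ccr2, at a mean of 12.3 CPM in ND-646 and 66.5 CPM in vehicle libraries, a receptor that activated T cells also carry. C1qc, S100a8, S100a9, Csf3r and Marco had no count in either group, and C1qa and C1qb had none in ND-646 libraries. CD4 and regulatory T cell markers, 6 of 9 lower and 1 higher, summed to 882 to 906 CPM in ND-646 and 1300.0 to 1322 CPM in vehicle libraries. Of the 8 that passed the filter in both groups, 5 were lower and 1 higher. The largest of them was Il2ra, which activated CD8 T cells express too, at 584 CPM in ND-646 and 1009 CPM in vehicle libraries. The part of these cells in the Il10 values was not tested.

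Il2 was at the limit of detection. It had 8, 3, 2 and 1 counts in ND-646 libraries, against 3, 6, 3 and 2 counts in vehicle libraries, and did not pass the low-count filter. The ratio of the summed counts was 0.816, with an exact 95% interval of 0.361 to 1.85, so a difference was not detectable at this depth. All these cultures received interleukin-2 protein.

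Ccl5, a chemokine of effector and memory CD8 T cells, had the smallest p of the 9 genes tested in this comparison. It stood at 10.2, 11.5, 10.7 and 9.91 CPM in ND-646 libraries, against 33.3, 35.2, 42.6 and 43.3 CPM in vehicle libraries. The highest ND-646 library was well below the lowest vehicle library. The log2 fold change was -1.87 ± 0.09 (SE, adjusted p = 1.27e-10 in edgeR), a level 3.65-fold lower, and it lay between -1.94 and -1.74 under all 18 alternatives. NK cell markers were also lower in 6 of 7 cases, with sums of 251 to 274 CPM in ND-646 and 445 to 499 CPM in vehicle libraries. Nkg7 made up most of the sum, at 245 CPM in ND-646 and 424 CPM in vehicle libraries, and it is a gene of CD8 T cells as well. NK cells also make Ccl5 and Ifng, and their part in these values was not tested.

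Ccl3, a chemokine of activated T cells and macrophages, had 2.70, 1.26, 1.48 and 3.08 CPM in ND-646 libraries, against 0.942, 1.05, 1.12 and 1.07 CPM in vehicle libraries. ND-646 libraries 1 and 4 were above libraries 2 and 3, and all 4 were above vehicle. The log2 fold change was 1.02 ± 0.27 (SE, adjusted p = 0.0048 in edgeR). Without ND-646 libraries 1 and 4 it was 0.37 with an adjusted p of 0.225, an alternative chosen after the data were seen. Ccl4, its paralog and neighbour, had 2.26, 1.43, 1.69 and 2.51 CPM in ND-646 libraries, against 1.84, 1.26, 1.85 and 1.32 CPM in vehicle libraries. Those groups overlapped, and the log2 fold change was 0.33 ± 0.21 (SE, adjusted p = 0.188). The ratio of Ccl3 to Ccl4 counts was 0.875 to 1.23 in ND-646 and 0.511 to 0.833 in vehicle libraries (exact permutation p = 0.0286, or 0.0571 adjusted over the 4 ratio tests).

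Xcl1, which encodes lymphotactin, had 1.11, 0.79, 1.02 and 1.097 CPM in ND-646 libraries, against 1.06, 1.47, 1.504 and 1.45 CPM in vehicle libraries. The groups overlapped only through vehicle library 1. The log2 fold change was -0.45 ± 0.20 (SE, adjusted p = 0.0687 in edgeR). It passed without vehicle library 1 (-0.56, adjusted p = 0.0391) and with a filter of 1 CPM (-0.46, adjusted p = 0.0497).

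Within each group of cultures, some libraries lay together for several of these genes. ND-646 libraries 1 and 4 were above libraries 2 and 3 for 7 genes (Ifng, Tnf, Lta, Csf2, Ccl3, Ccl4 and Xcl1) and below them for Ccl5. Over all genes, libraries 1 and 4 differed by a chi-square per degree of freedom of 5.07 and libraries 2 and 3 by 3.65, against 7.37 to 11.3 across these pairs. Vehicle libraries 1 and 2 were above 3 and 4 for Ifng, Tnf, Lta and Csf2 and below them for Ccl3 and Ccl5. Both splits were chosen after the values were seen. The share of all genes that divide the same way was not counted, so these counts are not particular to the cytokine genes. The labels name no batch that goes with either split.

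Among the receptors of these cytokines and chemokines, 5 of 16 rose and 7 fell in ND-646 cultures, with a median log2 fold change of -0.04. Of the 15 that passed the filter in both groups, 5 rose and 6 fell. Scaled by the CD8 T cell markers, 7 rose and 7 fell and the median was 0.09. The interferon gamma receptor chains rose, Ifngr1 by 0.61 ± 0.04 and Ifngr2 by 1.43 ± 0.09 on the log2 scale (SE). The interleukin-10 receptor chains Il10ra and Il10rb rose by 0.22 ± 0.04 and 0.45 ± 0.04, and Csf2ra, a GM-CSF receptor chain, by 0.69 ± 0.08. The chemokine receptors Ccr1, which binds Ccl3 and Ccl5 products, and Xcr1 fell, with Ccr1 at -2.83 ± 0.16 and Xcr1 at -4.62 ± 0.22. Xcr1, a marker of cross-presenting dendritic cells, averaged 0.181 CPM in ND-646 and 4.53 CPM in vehicle libraries and passed the filter through vehicle libraries alone. Of 6 dendritic cell markers tested, 2 were higher and 2 lower, the lower being Xcr1 itself and Itgax at -3.21. Of the 5 that passed the filter in both groups, 2 were higher and 1 lower. The list summed to 121 to 135 CPM in ND-646 and 108 to 115 CPM in vehicle libraries. Most of that was Ccr7, at 62.5 CPM in ND-646 and 40.7 CPM in vehicle libraries, and Batf3, at 58.9 and 58.5 CPM. The part of dendritic cells in the Xcr1 values was not tested. The tumour necrosis factor receptor Tnfrsf1b, at -0.38 ± 0.04, also fell, as did Il2ra and Il2rb of the interleukin-2 receptor at -0.79 ± 0.04 and -0.58 ± 0.04 and Csf2rb at -1.30 ± 0.27. Tnfrsf1a, Ltbr, Il2rg and Csf2rb2 passed no test, with log2 fold changes of 0.02, -0.08, -0.00 and 0.20.

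Of 26 interferon gamma response genes tested, 20 rose and 2 fell, with a median of 0.42 beside 0.01 over all genes, while Ifng itself was lower. The counts were also 20 and 2 when scaled by the CD8 T cell markers. Psmb9, an immunoproteasome subunit, had a log2 fold change of 0.69 ± 0.04 and Irf8, a transcription factor, had -1.12 ± 0.05 (SE). Many of these genes also respond to type I interferons. Of 15 NF-kB response genes, 9 rose and 4 fell, including Relb at 1.16 ± 0.08 and Traf1, a receptor adaptor, at 0.44 ± 0.04.

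Of 33 transcription factors of cytokine genes, 12 were higher and 14 lower, or 16 higher and 6 lower when scaled by the CD8 T cell markers. Eomes, a T-box factor that drives Ifng in CD8 T cells, had -1.41 ± 0.08, and Hif1a, the hypoxia factor, 0.63 ± 0.04. Factors of mRNA decay and stability also moved both ways, 3 higher and 6 lower of 15, a balance that turned to 7 higher and 4 lower with that scaling. Arid5a, which stabilises cytokine messages, had 0.47 ± 0.03 and Zfp36l2, which binds AU-rich elements, -0.46 ± 0.04. Of 16 other cytokines tested, 5 rose and 6 fell (7 and 5 with that scaling), with Tnfsf10, which encodes TRAIL, at -0.64 ± 0.07 and Mif at -0.55 ± 0.06. With TMM scaling, 5 rose and 4 fell of the 14 that passed the filter in both groups, and the other 2 passed through vehicle libraries alone. Among 29 other chemokines, 4 had enough counts to be tested, and 1 fell; with that scaling none passed.

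**Figure D3:**
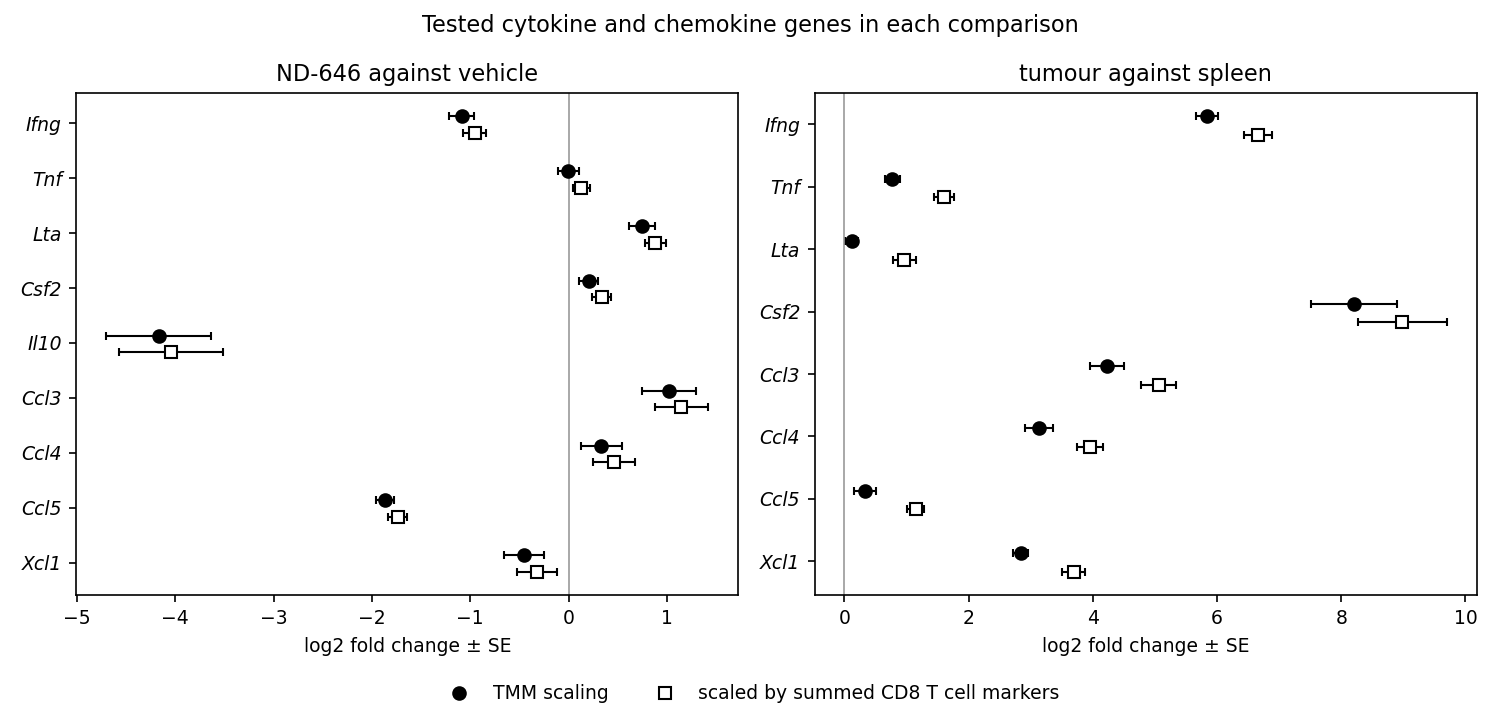
Log2 fold changes with standard errors of the tested genes in ND-646 over vehicle and tumour over spleen, with TMM scaling as filled circles and scaling by summed CD8 T cell markers as open squares. In ND-646 cultures Ifng, Il10 and Ccl5 lay below 0 with either scaling, and in tumour libraries Lta and Ccl5 passed with the second scaling only.

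Tumour CD8+ T cells were compared with spleen CD8+ T cells to ask how the genes differ where the cells meet the tumour. Ifng, Csf2, Ccl3, Ccl4 and Xcl1 were far higher in tumour libraries, Tnf was higher by a smaller amount, and Lta and Ccl5 passed no test. Of the 8 genes that passed the low-count filter, 6 rose and none fell. Over all 15042 genes tested, 83.8% were called, 43.6% higher and 40.2% lower. Csf2 passed the filter through tumour libraries alone. Among the other 7 genes, 5 rose and none fell, with a median log2 fold change of 2.84. Library groups did not overlap for 8 of the 10 genes, all but Il2 and Lta, nor for 86.2% of all genes tested. The median log2 fold change over all genes was 0.03. Scaled by the CD8 T cell markers, all 8 passed as higher, but the median of all genes then shifted by 0.840 and 82.3% of calls were higher, beside 52.0% with TMM. In the first experiment that scaling moved the median by 0.131, and 73.1% of calls were higher, beside 52.9% with TMM.

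Ifng had 54.4, 48.3 and 61.4 CPM in tumour libraries 1 to 3, against 1.21, 0.599 and 1.05 CPM in spleen libraries. Tumour and spleen values were far apart. The mean was 54.7 ± 6.52 CPM in tumour and 0.951 ± 0.314 CPM in spleen libraries (SD, n = 3 each). The log2 fold change was 5.83 ± 0.18 (SE, adjusted p = 5.66e-09 in edgeR), a 57.0-fold higher level.

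Csf2 showed the largest gap, with 111, 197 and 93 counts in tumour libraries, against 0, 0 and 1 counts in spleen libraries. Tumour levels were 5.49, 10.1 and 4.45 CPM. The ratio of the summed counts, 401 and 1, was 402 with an exact 95% interval of 71.8 to 15925, so its size is poorly known while its direction is the same in every library. Its adjusted p in edgeR was 3.56e-06. Csf2 passed the filter through tumour libraries alone, so its call was partly fixed by the filter. Il10 also had no spleen count. It had 13, 6 and 5 counts in tumour libraries. The ratio of the summed counts, 24 and 0, had an exact 95% lower limit of 6.04, for counting error only. Il10 did not pass the low-count filter and was not tested with it. With no filter its adjusted p was 2.93e-05 in edgeR.

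Tnf had 17.5, 14.7 and 17.2 CPM in tumour libraries, against 8.68, 10.9 and 9.38 CPM in spleen libraries. The groups did not overlap, and the log2 fold change was 0.77 ± 0.12 (SE, adjusted p = 0.000228 in edgeR). Lta had 12.1, 13.4 and 11.2 CPM in tumour libraries, against 10.8, 10.9 and 12.1 CPM in spleen libraries. The groups overlapped, with a log2 fold change of 0.12 ± 0.11 (SE, adjusted p = 0.338). Scaled by the CD8 T cell markers, Tnf was at 1.60 and Lta at 0.97, where Lta had an adjusted p of 0.000357. Il2 had 5, 10 and 3 counts in tumour libraries and 3, 0 and 6 counts in spleen libraries. That gave a ratio of 2.01 with an exact 95% interval of 0.856 to 5.07, and a difference was not detectable at this depth.

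Ccl3 had 18.4, 14.6 and 22.04 CPM in tumour libraries, against 1.49, 0.649 and 0.748 CPM in spleen libraries. Ccl4 had 27.2, 20.2 and 35.5 CPM in tumour libraries, against 3.33, 3.20 and 2.89 CPM in spleen libraries. Neither pair of groups came near to overlapping. Ccl3 had a log2 fold change of 4.23 ± 0.28 (SE, adjusted p = 5.67e-07 in edgeR) and Ccl4 one of 3.14 ± 0.22 (SE, adjusted p = 1.40e-06). The ratio of Ccl3 to Ccl4 counts was 0.621 to 0.723 in tumour and 0.203 to 0.449 in spleen libraries, without overlap (exact permutation p = 0.1, the smallest possible, also after adjustment).

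Xcl1 had 79.3, 86.8 and 65.4 CPM in tumour libraries, against 10.8, 9.79 and 11.8 CPM in spleen libraries. Every tumour library was above every spleen library. The log2 fold change was 2.84 ± 0.12 (SE, adjusted p = 3.44e-08 in edgeR), or 7.15-fold. Ccl5, already abundant in spleen, had 222, 144 and 144 CPM in tumour libraries, against 143, 121 and 140.2 CPM in spleen libraries. The groups did not overlap, but the log2 fold change of 0.33 ± 0.17 did not pass (adjusted p = 0.105). Tumour library 1, at 222 CPM, was the high one, and without it the value was 0.14 with an adjusted p of 0.0518. It was 0.47 with an adjusted p of 0.0334 without tumour library 3, 0.40 with 0.0115 in DESeq2's Wald test, and 1.15 with 3.85e-06 when scaled by the CD8 T cell markers.

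Tumour libraries differed among themselves by gene. Tumour library 2 was lowest for Ifng, Tnf, Ccl3 and Ccl4 and highest for Csf2, Lta, Xcl1 and Il2. It also had the lowest sum of CD8 T cell markers, 4630 CPM beside 6205 and 5459 CPM in libraries 1 and 3, and the highest sum of fibroblast and fibrosarcoma markers, 15473 CPM beside 10678 and 13694 CPM. The part of these cells in the values was not tested. Some gaps between libraries were small, with Lta at 11.2 to 13.4 CPM and Il2 at 3 to 10 counts. Among so few libraries each is often the highest or lowest, and the share of all genes for which library 2 was either was not counted.

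Markers of other cells that can make these products also differed between tumour and spleen libraries. NK cell markers were higher in 8 of 9 tested cases and lower in 1. Of the 7 that passed the filter in both groups, 6 were higher and 1 lower. The NK list summed to 435 to 562 CPM in tumour and 366 to 379 CPM in spleen libraries. Nkg7, which CD8 T cells share, held most of that sum, and Klre1 averaged 23.5 CPM in tumour and 2.86 CPM in spleen libraries. Macrophage, monocyte and neutrophil markers were higher in 9 of 12 cases and lower in none, with sums of 283 to 415 CPM in tumour and 339 to 355 CPM in spleen libraries, most of it Ly6c2, a gene that memory CD8 T cells also express. Of the 6 such markers that passed the filter in both groups, 3 were higher and none lower. Cxcr2 and Marco had no count in either group, and Fcgr1, C1qa, Cd14 and S100a8 had none in spleen libraries. CD4 and regulatory T cell markers were higher in 4 of 8 cases and lower in 1, with sums of 382 to 499 CPM in tumour and 65.8 to 67.2 CPM in spleen libraries. The 3 not called were Cd4, Foxp3 and Cd40lg, at log2 fold changes of 0.54, 0.22 and 0.54. Ctla4, also a gene of activated CD8 T cells, was the list's largest at 243 CPM in tumour and 3.66 CPM in spleen libraries. B cell markers went the other way, lower in 7 of 7 cases, and in all 6 that passed the filter in both groups. They summed to 59.9 to 75.8 CPM in tumour and 837 to 872 CPM in spleen libraries, and B cells can make Lta and Tnf. The part of these cells in the cytokine and chemokine values was not tested.

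**Figure D4:**
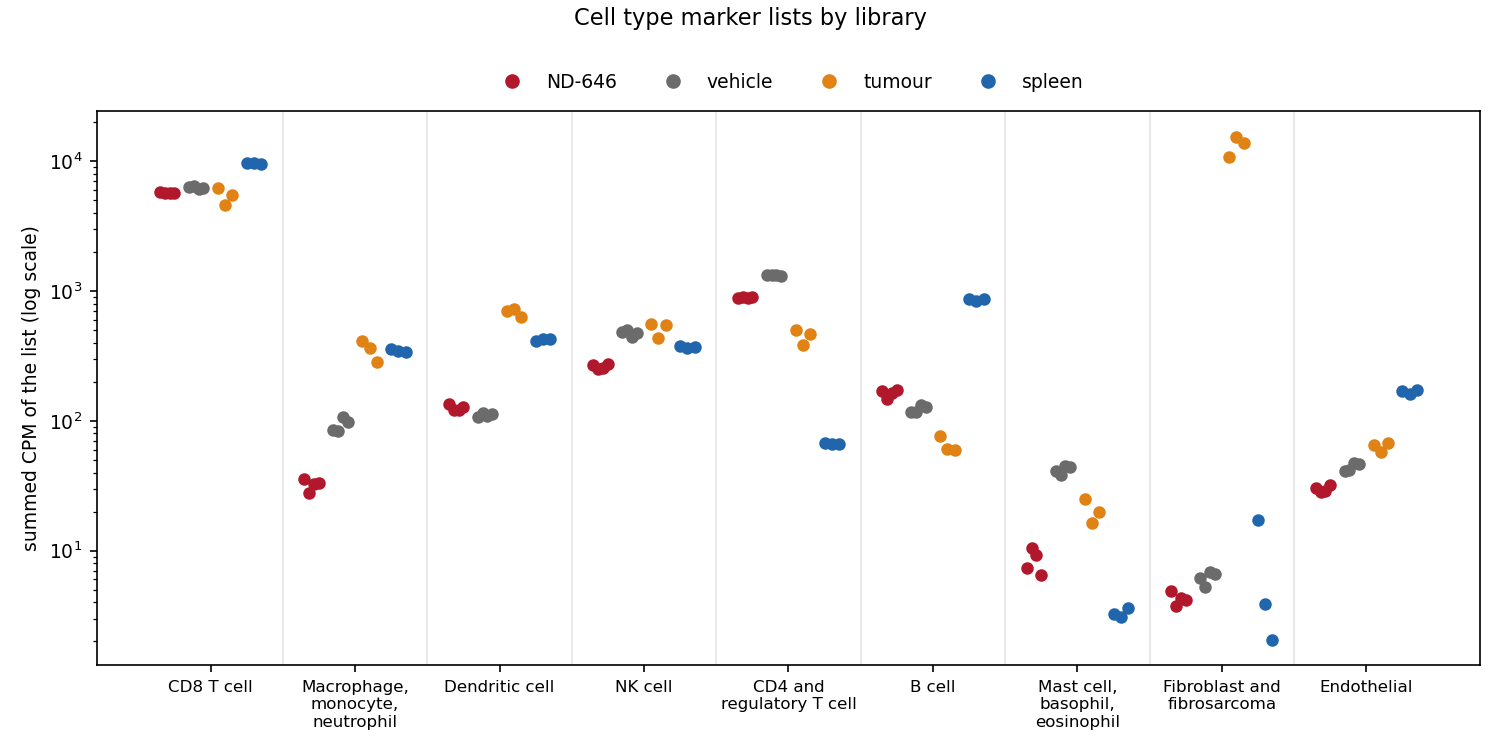
Summed CPM of 9 cell type marker lists in each library on a log axis, with each point 1 library. Fibroblast and fibrosarcoma markers stood at 10678 to 15473 CPM in tumour libraries and at most 17.3 CPM in spleen libraries, and in the cultures the sums of the B cell and dendritic cell lists were higher and those of the other 7 lists lower in ND-646 than in vehicle libraries.

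Of the 16 receptors of these ligands, 12 rose and 3 fell in tumour libraries (10 and 3 of the 14 that passed the filter in both groups), or 13 rose and none fell when scaled by the CD8 T cell markers. Ltbr, the receptor of membrane lymphotoxin that stromal and myeloid cells carry and lymphocytes mostly lack, averaged 30.6 CPM in tumour and 0.196 CPM in spleen libraries. Tnfrsf1b rose by 2.64 ± 0.08 and Tnfrsf1a by 0.76 ± 0.07 on the log2 scale (SE). Il2ra rose by 4.98 ± 0.19 and Il2rb by 1.60 ± 0.09, whereas the shared chain Il2rg had -0.81 ± 0.06. Ifngr1 rose by 1.85 ± 0.08 and Ifngr2 by 0.48 ± 0.10. The chemokine receptors Ccr1 and Xcr1 rose by 6.22 ± 0.50 and 1.53 ± 0.26. Ccr1 averaged 2.90 CPM in tumour and 0.0327 CPM in spleen libraries. Ccr1 and Ltbr passed the filter through tumour libraries alone, so their calls were partly fixed by the filter. Both interleukin-10 receptor chains were lower with TMM scaling, Il10ra at -0.50 ± 0.10 and Il10rb at -1.01 ± 0.10. Csf2rb and Csf2rb2 rose by 2.03 ± 0.27 and 2.07 ± 0.37, and Csf2ra, at -0.48 ± 0.22, passed no test.

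Of 19 NF-kB response genes, 17 rose and 1 fell (14 and 1 of the 16 that passed the filter in both groups), with Tnfaip3, which encodes the inhibitor A20, at 4.27 ± 0.07 and Rel at 1.89 ± 0.07 (SE). Interferon gamma response genes split, 12 higher and 13 lower of 29, with a median of 0.01. Of the 28 that passed the filter in both groups, 11 were higher and 13 lower. When scaled by the CD8 T cell markers, 22 of the 29 were higher and 1 lower. Cxcl9 stood at 6.22 ± 0.25 and Gbp3, a guanylate-binding protein gene, at 1.79 ± 0.06. Of 34 transcription factors of cytokine genes, 21 rose and 9 fell, or 27 and 3 with the CD8 scaling, with the AP-1 member Fosl2 at 5.20 ± 0.08 and Hif1a at 2.27 ± 0.06. Among 15 factors of mRNA decay and stability, 7 rose and 6 fell, or 13 and none with the CD8 scaling. Zc3h12a, an endonuclease of cytokine messages also called regnase-1, rose by 1.74 ± 0.10, and Tia1, which binds AU-rich elements, had -0.91 ± 0.06.

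Of 33 other cytokines, 18 were tested, and 7 of these passed the filter through tumour libraries alone. Of the other 11, 6 rose and 4 fell. The named genes of this list were Csf1 at 8.82 ± 0.27, a macrophage growth factor that fibroblasts make, and Tnfsf11, which encodes RANKL, at 5.24 ± 0.17. Of 29 other chemokines, 13 were tested, and 7 of these passed the filter through tumour libraries alone. Of the other 6, 5 rose and 1 fell. Cx3cl1, 1 of the 7 that passed through tumour libraries alone, averaged 99.9 CPM in tumour and 0.0654 CPM in spleen libraries. Summed over the list, other chemokines reached 967 to 1692 CPM in tumour and 7.83 to 10.7 CPM in spleen libraries. The connective tissue markers given above were higher in the same libraries, and their part in these lists was not tested.

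**Figure D5:**
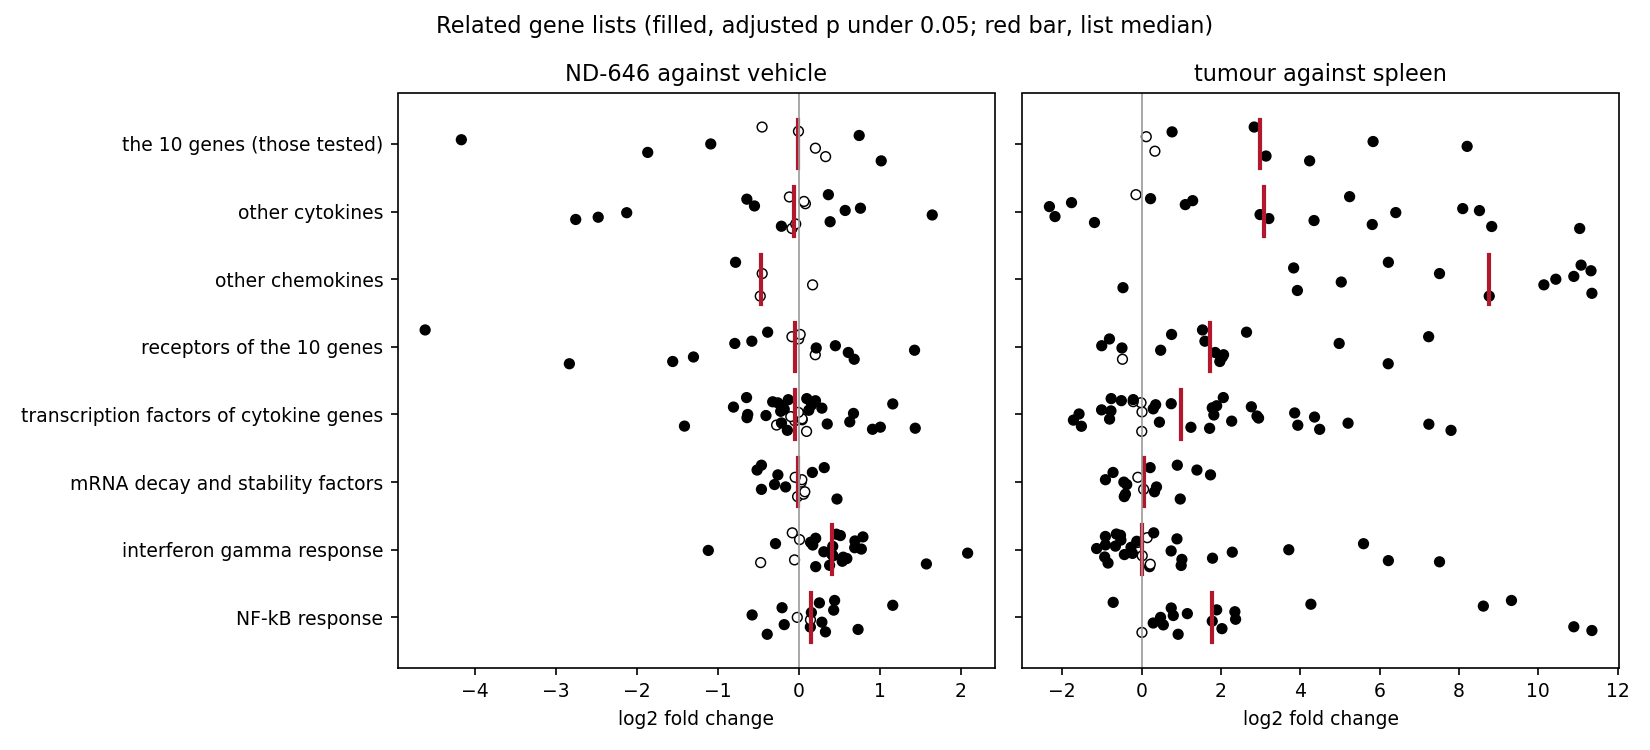
Log2 fold changes of the tested genes of 8 lists in ND-646 over vehicle and tumour over spleen, each point 1 gene, filled where the adjusted p was under 0.05, with a red bar at the list median. The median of the interferon gamma response list was 0.42 in ND-646 cultures and 0.01 in tumour libraries.

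Per kilobase of transcript, the leading gene differed by condition. Lta led in the cultures, at 240.0 CPM per kilobase in ND-646 and 143 in vehicle libraries, and Ccl5 led in the second experiment, at 319 CPM per kilobase in tumour and 253 in spleen libraries. Tnf came next in ND-646 cultures at 47.4 CPM per kilobase, with Ccl5 at 19.8. Ccl5 came next in vehicle cultures at 72.5 CPM per kilobase, with Tnf at 47.4. Xcl1 was next in both tissues, at 148 CPM per kilobase in tumour and 20.6 in spleen libraries. Ifng ranked 3 in tumour libraries, at 45.3 CPM per kilobase, and 7 in spleen libraries, at 0.787. Il2 and Il10 were at or under 0.502 CPM per kilobase in every group.

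Across the 4 conditions, set side by side without a test because the tables were scaled apart, Ifng ran from tumour through vehicle and ND-646 down to spleen, with no overlap between neighbours. Tnf and Lta were highest in both kinds of culture, followed by tumour and spleen, which overlapped for Lta. Csf2 was of the same order in ND-646, vehicle and tumour libraries, which overlapped, and near 0 in spleen. Ccl3 was highest in tumour libraries, with vehicle and spleen overlapping at the low end. Ccl4, Ccl5 and Xcl1 ran from tumour to spleen to the cultures, with no overlap between tumour and spleen or between spleen and the cultures.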

How the data were processed

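RNA was measured in 14 libraries made with poly(A) selection and a directional kit, per the labels' protocols. Each experiment has a deposited table of the authors' estimated counts, with gene symbols as rows. STAR, Salmon and DESeq2 are named in the submitters' processing notes. Not given in the sources used here are the genome build, annotation, settings and use of strand. Totals differ between libraries, so the values were treated as unnormalized. The first table had 9.16% and the second 9.15% of values that were not whole (tolerance 1e-06), Ifng and Il2 among them, and all were rounded.

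The 2 tables were fitted apart, with edgeR 4.0.16 under R 4.3.3. Genes were filtered by filterByExpr (a gene is said to pass through 1 group alone where no library of the other reached the filter's CPM minimum), scaled by TMM and tested by robust quasi-likelihood, with Benjamini-Hochberg adjusted p under 0.05 over all genes as a call. The fit was tested on simulated data. Standard errors were derived from the F statistic. Ratios of summed counts carry exact binomial intervals at 95%. Alternatives were DESeq2 1.42.0, limma-voom (limma 3.58.1), other scalings and filters, a replicate block and leaving out libraries. Members and gene lists were chosen with earlier results of these data known. All 10 members are described. From each list up to 2 called genes per comparison were named, those with the smallest p at a mean of at least 10 CPM, with the most abundant cell type marker and the receptors; any other gene was chosen after its values were seen. The values of 1 receptor are not reported here. Transcript lengths and 3′ regions are from the coding transcript with the longest coding sequence in GENCODE M21, and promoters are from RefSeq GRCm38.p6. These annotations may differ from the authors'.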

Additional observations from a re-analysis of the deposited data

Results flagged for a closer look

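Xcl1 in vehicle library 1 stood at 1.06 CPM, away from the other 3 vehicle libraries at 1.45 to 1.504 CPM. The gap to the nearest of them was 0.876 of the group's range, above Dixon's 95% critical value for 4 samples. It was the only such value among the 24 gene and ratio groups of 4 libraries that were checked, and chance flags about 1 in 20 such groups.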

How the results depend on the processing

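In ND-646 against vehicle, Ifng, Lta, Il10 and Ccl5 kept their direction and their call under every alternative that gave a value (18 each, 17 for Il10), and Ccl3 under 17 of 18. In tumour against spleen, Ifng, Tnf, Csf2, Ccl3, Ccl4 and Xcl1 kept theirs under all 14. In the main fit, the calls of Il10 in ND-646 cultures and of Csf2 in tumour libraries were partly fixed by the low-count filter. Calls were gained by Csf2 and Xcl1 in ND-646 cultures and by Lta and Ccl5 in tumour libraries under the alternatives given beside them. Csf2 also passed with total counts (0.24, adjusted p = 0.0470 in edgeR) and without ND-646 libraries 2 and 3 (0.31, adjusted p = 0.0185). Ccl4 in ND-646 cultures passed without those libraries (0.61, adjusted p = 0.0180). The sign of values near 0 changed. Tnf in ND-646 cultures had 0.028 with total counts, 0.0040 with no low-count filter, 0.0078 with limma-voom, 0.13 scaled by CD8 T cell markers, 0.042 without ND-646 libraries 2 and 3, and -0.079 to 0.077 without 1 library. Ccl4 had -0.018 without ND-646 libraries 1 and 4. The cause was not tested. Genes passing without 1 library numbered 7424 to 7932 for ND-646 and 12342 to 12928 for tumour, and members 5 to 7 and 6 to 7. Same-numbered libraries did not deviate together (correlations of -0.121 to 0.0659 and -0.0463 to -0.0193), so the numbers are not taken as pairs. With the replicate block, 7864 and 12492 genes and 5 and 7 members passed, Tnf in ND-646 cultures was at 0.0075, and Ccl5 in tumour libraries passed (0.31, adjusted p = 0.0267). Depth limits Il2 and Il10.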
